A study of Homo sapiens with 8 samples.

Results

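MYC and 34 genes of nucleolar ribosome production were followed in PC3, an established line of human prostate cancer cells, with and without targeting of the arginine methyltransferase PRMT7. The 35 genes were picked by name from the 58735 genes of the table, and each matched 1 row. They hold MYC and its partner MAX, and core proteins of the box C/D and box H/ACA small nucleolar RNA particles. The others are RNA polymerase I subunits and factors of ribosomal DNA transcription, nucleolar scaffold proteins, and assembly factors of both ribosomal subunits. No member passed the test, and the members' mean level differed little between the groups. Within the set the difference ran both ways, and its sign went with gene length and with 1 library.

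Ribosomes are built in the nucleolus. RNA polymerase I transcribes the ribosomal RNA precursor, small nucleolar RNA particles guide its ribose methylation and pseudouridylation, and assembly factors fold, cleave and export the pre-ribosomes. MYC, which binds E-box DNA as a dimer with MAX, is known for raising the transcription of many of these genes in growing tumour cells. Fibrillarin, nucleolin and GAR1 carry glycine- and arginine-rich stretches that are known substrates of arginine methylation, a modification of protein that transcript levels do not measure.

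Poly(A)-selected RNA was sequenced from 4 libraries labelled siCtrl (genotype label WT) and 4 labelled siPRMT7 (genotype label PRMT7 knockdown). All cells were PC3 in RPMI-1640 with serum, transfected with synthetic RNA using Lipofectamine 3000 and cultured for 48 h more. The study's title concerns PRMT7 in the cell cycle and in prostate cancer progression, and for these genes the comparison asks whether targeting PRMT7 goes with a change in MYC or in the nucleolar machinery. The titles read siCtrl and siPRMT7 while the library names read shCtrl and shPRMT7, so the labels differ on the kind of RNA used. The labels name no separate cultures, so p-values measure the spread between these libraries only, which may be technical, and a single line stands for the tumour type.

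Values are FPKM, fragments per kilobase of gene length and per unit of library size. For the members, gene length was that of all annotated exonic bases, which can exceed that of the transcript in use. Levels of different genes can therefore be compared only roughly. Libraries held 14526030 to 15724862 fragments. The epithelial and PC3 markers KRT8, KRT18, KRT19, EPCAM and VIM were all present, and the luminal genes KLK2 and KLK3 were listed at 0 in every library. Of 12 markers of other cell types 2 reached a mean of 1 FPKM, PECAM1 and COL1A1, and the summed level of the 12 was 10.7 to 12.1 FPKM under siCtrl and 10.5 to 12.3 FPKM under siPRMT7. PRMT7 itself had 5.11 ± 0.183 FPKM under siCtrl and 4.69 ± 0.298 FPKM under siPRMT7 (SD, n = 4 each, two-sided exact permutation p = 0.0571, where the smallest possible is 0.0286). The libraries labelled siPRMT7 thus had only slightly less PRMT7 transcript on average, with overlap, and each direction below is between library labels. One library, siPRMT7 replicate 2, stood apart: it lay at 28.4 on the first principal component, where the other 7 lay from -11.9 to 7.36. Results that rest on it are given with and without it.

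To show what MYC could bind at these genes, the E-box CACGTG was searched in RefSeq promoter windows (GRCh38.p14), each from 250 bases before to 50 after a gene's start. The motif reads the same on both strands. Of the 35 members 28 had a window, and 14 of these 28 (50%) held the motif, against 12.8% of protein-coding genes tested and 8.77% of all genes with a window. Related lists described further on held it in 52.4% (MYC targets outside the nucleolus), 40% (small subunit) and 29.3% (large subunit) of their genes with a window. The share was 27.3% in the wider MYC network and 8.33% in further RNA polymerase I subunits and initiation factors. It was 0% in further subunit and assembly factors of small nucleolar RNA particles. Of the 15 matches 14 lay within 100 bases of the start. A match is a description of the letters and does not show binding. The sequences around the matches of the 4 members with the smallest p among those with a match are shown 5′ to 3′ on the gene's strand, with the E-box in capitals.
DDX21, chr10:68956604-68956633, plus strand: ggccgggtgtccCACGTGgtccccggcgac
NOP10, upstream match, chr15:34343289-34343318, minus strand: gtagggacactcCACGTGttttagcctgca
NOP10, match at the start, chr15:34343130-34343159, minus strand: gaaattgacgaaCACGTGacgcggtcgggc
UTP20, chr12:101280083-101280112, plus strand: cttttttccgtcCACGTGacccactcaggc
WDR43, chr2:28894658-28894687, plus strand: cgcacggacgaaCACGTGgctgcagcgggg

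The matches of UTP20 and of NOP10 upstream of its start lay outside every annotated exon, and a longer stretch is shown for each to give their setting.
NOP10, chr15:34343241-34343314, minus strand: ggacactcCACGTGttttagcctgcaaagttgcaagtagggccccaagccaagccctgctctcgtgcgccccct
UTP20, chr12:101280035-101280104, plus strand: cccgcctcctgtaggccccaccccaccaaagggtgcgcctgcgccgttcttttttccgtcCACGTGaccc

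The E-box did not mark a direction among the members. Of 13 tested members with the motif 8 had a higher mean log2 level in siPRMT7 (median log2 fold change 0.01), and of 14 without it 8 did (median 0.01). NOP10, with a pair of E-boxes, had a log2 fold change of 0.24, while UTP20 and DDX21, each with a single one, had -0.19 and -0.14.

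Of the 35 members 34 passed the filter on low values, which asked for 1 FPKM or more in 4 or more libraries. NOP2 was the exception. With limma on log2(FPKM + 1), which understates changes of low genes, 0 of the 34 passed an adjusted p of 0.05 over all 13436 genes tested, where 2 genes, or 0.0149%, did. With limma's voom on rebuilt fragments 0 members passed as well. At an unadjusted p under 0.05 there were 3 members, or 8.82%, against 13.2% of all genes. These were NOP10 higher, 1 of 34 against 7.67% of all genes in that direction, and DDX21 and HEATR1 lower, 2 of 34 against 5.49%. The count of 3 was 0 when siCtrl replicate 2 or 4 was left out, where 9.89% and 8.79% of all genes passed. It was 9, 2 and 1 when siPRMT7 replicate 1, 2 or 3 was left out. Without siPRMT7 replicate 3 the share over all genes was 9.45%. Leaving out siPRMT7 replicate 1 raised the share over all genes as well, from 13.2% to 20.8%. With siPRMT7 replicate 2 left out 0 members passed the adjusted threshold, against 0.0151% of all genes, and the unadjusted share over all genes was 13%. With every library brought to one FPKM total it was 5 of 34, against 13.5% of all genes.

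Of the 34 members 20 had a positive and 14 a negative log2 fold change, with a median of 0.01, and over all genes tested the median was -0.00154. With siPRMT7 replicate 2 left out the split was 13 positive and 21 negative, with a median of -0.02. With every library brought to one FPKM total it was also 13 and 21, and 61.5% of all genes were then negative (median -0.04) against 50.5% as reported. The 35 members together took 0.5084 to 0.5141% of fragments in siCtrl and 0.493 to 0.528% in siPRMT7 libraries. Only siPRMT7 replicate 2 lay above the siCtrl range. Without it the siPRMT7 libraries took 0.4932 to 0.5077%, each below every siCtrl library. The mean log2 level of the tested members still overlapped without it, at 4.62 to 4.68 against 4.65 to 4.67 in siCtrl. These differences were not tested. In bulk RNA a difference in the number of cells and one in RNA per cell cannot be told apart. Only HEATR1 had groups that did not overlap, 1 of 34, against 8.57% of all genes. It was lower, as 4.43% of all genes were, and 0 members were higher without overlap, against 4.14%.

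MYC (ENSG00000136997, chromosome 8, 127735434 to 127741434, plus strand) had rank 4 among the 35 members by mean FPKM. It had 75.6, 80.1, 73.6 and 67.1 FPKM under siCtrl replicates 1 to 4, and 73.4, 81.5, 81.4 and 77.3 FPKM under siPRMT7 replicates 1 to 4. The lowest value was a siCtrl library and the groups overlapped. The means were 74.1 ± 5.41 and 78.4 ± 3.84 FPKM (SD, n = 4 each), a log2 fold change of 0.08 with a 95% interval from -0.06 to 0.22 (limma adjusted p = 0.561). Each value rested on 2921 to 3844 fragments. An equal level of MYC in both groups lies inside the interval.

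MAX, the partner with which MYC binds DNA, had 35.1, 33.5, 34.4 and 33.7 FPKM under siCtrl and 35.4, 38.3, 35.8 and 35.03 FPKM under siPRMT7. The siPRMT7 libraries lay above all siCtrl libraries except that siCtrl replicate 1 exceeded siPRMT7 replicate 4. The log2 fold change was 0.08, with an interval from -0.01 to 0.17 (limma adjusted p = 0.437). Without siPRMT7 replicate 2 the fold changes were 0.06 for MYC and 0.05 for MAX. For MYC the value ran from 0.03 without siCtrl replicate 4 to 0.12 without siCtrl replicate 2, and it was 0.04 with every library brought to one FPKM total.

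**Figure D1:**
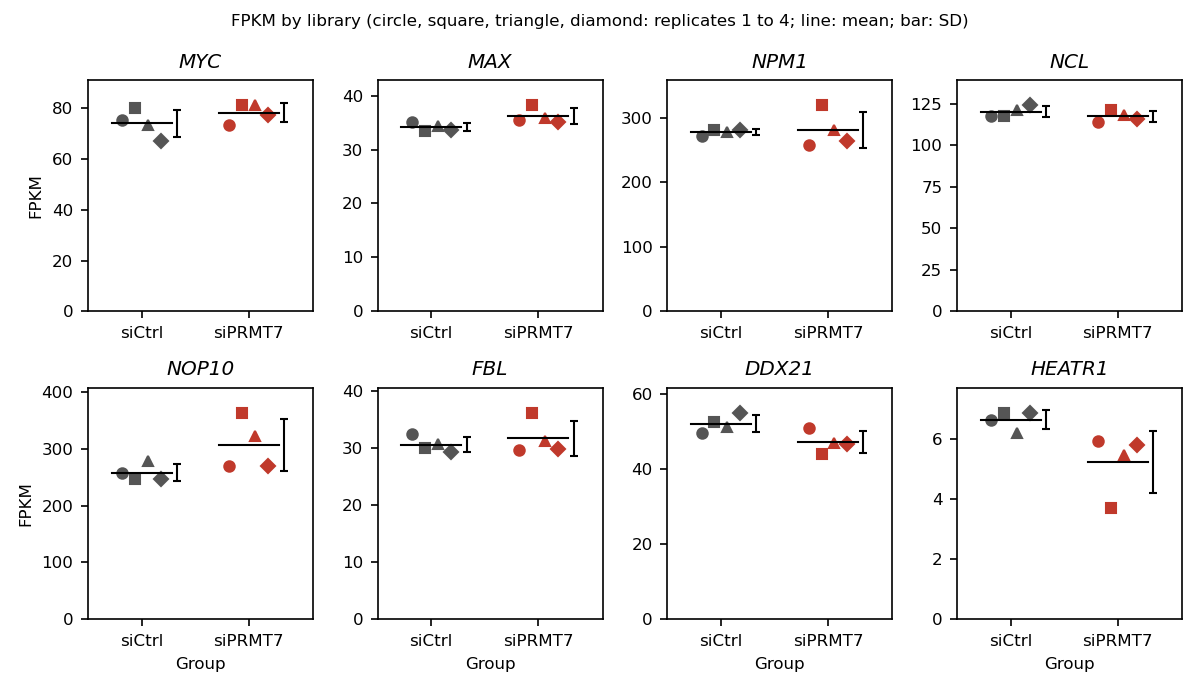
FPKM (vertical axes, each from 0) of 8 members in the siCtrl and siPRMT7 libraries (horizontal axes). Each point is a library, with its replicate number given by the shape, the line is the group mean and the bar the SD (n = 4). In HEATR1 alone the groups do not overlap, and siPRMT7 replicate 2 (square) is the highest siPRMT7 library in MYC, MAX, NPM1, NCL, NOP10 and FBL and the lowest in DDX21 and HEATR1.

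All 6 members linked to RNA polymerase I had lower means in siPRMT7, and none passed. Members and roles were chosen with earlier results of these data known, so this count is a description only. HEATR1, a factor of the small subunit processome that also supports ribosomal RNA transcription, had 6.61, 6.84, 6.195 and 6.86 FPKM under siCtrl and 5.92, 3.71, 5.45 and 5.78 FPKM under siPRMT7. Every siPRMT7 library was below every siCtrl library, and siPRMT7 replicate 2 was far below the rest. The log2 fold change of HEATR1 was -0.31, with an interval from -0.57 to -0.05 (limma adjusted p = 0.313). With siPRMT7 replicate 2 left out it was -0.18, over 1.5 times smaller, and the SD of the siPRMT7 group went from 1.02 to 0.241 FPKM (limma adjusted p = 0.217). On the opposite strand LGALS8 shares 23.2% of the exonic bases of HEATR1 (chromosome 1, 236549005 to 236604504, minus strand), and strand use in counting was not given in the sources used here.

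POLR1A, the largest subunit of RNA polymerase I, had 12.1, 11.98, 11.4 and 12.6 FPKM under siCtrl. In siPRMT7 it had 12.1, 6.97, 10.9 and 12.2 FPKM, so replicate 2 alone was far below the others. Its log2 fold change was -0.20 with all libraries and -0.03 without that one. POLR1B, the other large catalytic subunit, had 11.6 ± 0.724 and 10.7 ± 0.584 FPKM (-0.11, and -0.08 without siPRMT7 replicate 2).

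The scaffold proteins of ribosomal DNA transcription followed the same order. NOLC1, a chaperone of small nucleolar RNA particles, had 27.6 ± 1.05 FPKM under siCtrl and 25.5 ± 1.65 FPKM under siPRMT7 (log2 fold change -0.11). TCOF1, or treacle, had 14.7 ± 0.893 and 13.9 ± 1.25 FPKM (-0.08). MYBBP1A, a nucleolar repressor and processing factor, had 14.0 ± 0.224 and 13.0 ± 1.70 FPKM (-0.11), with siPRMT7 replicate 2 at 10.6 FPKM and the other siPRMT7 libraries at 13.2 to 14.2 FPKM. When that library was left out the fold changes were -0.06, -0.02 and -0.02 in the same order, and the median of the 6 genes went from -0.11 to -0.05. All 6 signs were negative in every alternative run, with TCOF1 close to 0 in one of them.

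Transcripts of the box C/D core proteins in the set were close to equal between groups. Fibrillarin, encoded by FBL, is the ribose methyltransferase of these particles. FBL had 32.4, 30.0, 30.7 and 29.3 FPKM under siCtrl and 29.7, 36.2, 31.2 and 29.8 FPKM under siPRMT7. Only siPRMT7 replicate 2 lay above all siCtrl libraries. The log2 fold change of FBL was 0.05 (interval -0.10 to 0.20), and it turned to -0.01 without that library or with each library's trend on gene length removed.

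NOP58, a scaffold of the particle with the smallest p of the 3, had 32.6, 31.5, 34.4 and 33.8 FPKM under siCtrl and 32.6, 37.1, 34.1 and 33.98 FPKM under siPRMT7. Its groups overlapped (log2 fold change 0.05, limma adjusted p = 0.624). Its partner NOP56 had 32.0 ± 1.86 and 32.8 ± 1.02 FPKM. Transcripts of these 3 core proteins thus had similar FPKM, 31.2 to 33.8 on average over all libraries. Neighbours in that order did not differ beyond their spread. Protein was not measured.

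Transcripts of the box H/ACA core proteins, which carry out pseudouridylation, had unequal FPKM. NOP10, the smallest protein of the particle, averaged 282 FPKM over all libraries, NHP2 43.2, the pseudouridine synthase DKC1 31.6 and GAR1 7.86 FPKM. All 4 had a positive log2 fold change with all libraries, and 3 without siPRMT7 replicate 2 or with every library brought to one FPKM total. NOP10 (chromosome 15, 34341713 to 34343177, minus strand) had 257, 247, 279 and 248 FPKM under siCtrl and 269, 364, 322 and 269 FPKM under siPRMT7. Replicates 2 and 3 of siPRMT7 were above all siCtrl libraries, and the other 2 lay within the siCtrl range. The log2 fold change of NOP10 was 0.24 (interval 0.01 to 0.46, limma adjusted p = 0.361). When siPRMT7 replicate 2 was left out it was 0.15, over 1.5 times smaller, and no longer under an unadjusted p of 0.05.

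NHP2, which binds the guide RNA beside NOP10, had 36.0, 36.0, 46.5 and 42.9 FPKM under siCtrl and 38.8, 52.7, 50.2 and 42.7 FPKM under siPRMT7. Here the siCtrl libraries themselves ranged as widely as the groups differed (log2 fold change 0.19, interval -0.07 to 0.45), and the fold change was 0.12 without siPRMT7 replicate 2. RMND5B on the opposite strand shares 27.4% of its exonic bases. GAR1 had 7.65 ± 0.535 and 8.07 ± 0.914 FPKM. DKC1 had 31.4 ± 0.993 and 31.7 ± 2.06 FPKM, and its sign turned without siPRMT7 replicate 2 (0.01 to -0.03).

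Among nucleolar scaffold genes, NPM1 and NCL had the highest mean FPKM of the set after NOP10. Nucleophosmin, encoded by NPM1, is a chaperone of the outer nucleolus. NPM1 had 272, 281, 278 and 281 FPKM under siCtrl and 259, 320, 281 and 264 FPKM under siPRMT7. The siCtrl libraries lay close together (SD 4.34 FPKM), while the siPRMT7 libraries lay on both sides of them (SD 27.9 FPKM). Its log2 fold change was 0.01 with all libraries and -0.05 without siPRMT7 replicate 2. The table also lists 45 NPM1 pseudogenes, with which the gene could share reads, and together they had 343 fragments on average against 16268.5 for the gene.

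Nucleolin, encoded by NCL, binds the ribosomal RNA precursor. NCL had 117, 118, 121 and 124 FPKM under siCtrl and 114, 121, 118 and 115 FPKM under siPRMT7. The groups overlapped in most of their range (log2 fold change -0.03, interval -0.12 to 0.06, limma adjusted p = 0.715). With at least 11683 fragments in every library the counting error was at most 0.925%, less than the SD of 3.29 FPKM between siCtrl libraries.

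DDX21, an RNA helicase that links RNA polymerase I and II transcription to ribosomal RNA processing, had 49.6, 52.5, 51.1 and 55.0 FPKM under siCtrl and 50.8, 43.9, 47.0 and 46.7 FPKM under siPRMT7. Replicates 2, 3 and 4 of siPRMT7 were below all siCtrl libraries, and replicate 1 was within their range. The log2 fold change was -0.14 (interval -0.26 to -0.02, limma adjusted p = 0.316), and -0.11 without siPRMT7 replicate 2. The GTPase nucleostemin, encoded by GNL3, had 37.0 ± 2.02 and 37.8 ± 2.14 FPKM, and the zinc finger protein LYAR had 13.8 ± 0.835 and 13.9 ± 1.16 FPKM. All 5 genes of this group had a negative log2 fold change without siPRMT7 replicate 2 (median -0.05 against 0.01 with it), with every library brought to one FPKM total, and with each library's trend on gene length removed.

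Among the 6 factors of small subunit assembly 2 had a positive and 4 a negative log2 fold change, and with every library brought to one FPKM total 1 and 5. UTP20, a large scaffold of the small subunit processome, had 9.58, 9.94, 8.85 and 10.0 FPKM under siCtrl and 10.0, 6.79, 8.31 and 8.35 FPKM under siPRMT7. As in DDX21, replicates 2, 3 and 4 were below all siCtrl libraries and replicate 1 was not. Its log2 fold change was -0.19 (interval -0.40 to 0.03, limma adjusted p = 0.425), and -0.10 without siPRMT7 replicate 2.

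The other factors of this group differed by less. WDR43, a processome subunit, had 29.3 ± 2.26 and 27.5 ± 0.923 FPKM (log2 fold change -0.09). NOP14 had 18.2 ± 0.357 and 17.7 ± 0.987 FPKM, and its antisense gene NOP14-AS1 shares 17.1% of its exonic bases. RRP12, which acts in pre-ribosome maturation and export, had 8.51 ± 0.320 and 8.41 ± 0.377 FPKM. BYSL, an assembly factor also named bystin, had 21.9 ± 0.955 and 22.1 ± 2.02 FPKM, and RRP9 had 29.6 ± 1.48 and 31.1 ± 2.02 FPKM.

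Of the 9 factors of large subunit assembly 8 were tested, 6 with a positive log2 fold change, 5 with every library brought to one FPKM total and 4 without siPRMT7 replicate 2. NOP16 had the smallest p of them. It had 15.8, 15.9, 16.7 and 13.7 FPKM under siCtrl and 15.6, 20.8, 17.96 and 17.4 FPKM under siPRMT7. Replicates 2, 3 and 4 of siPRMT7 were above all siCtrl libraries, and replicate 1 was within their range. Its log2 fold change was 0.19 (interval -0.01 to 0.39, limma adjusted p = 0.384), and 0.12 without siPRMT7 replicate 2, over 1.5 times smaller. On the opposite strand HIGD2A and ARL10 share 7.93% and 12.02% of its exonic bases.

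PES1, BOP1 and WDR12 form one complex needed for maturation of the large subunit. None of the 3 passed: PES1 had 30.2 ± 0.869 and 30.3 ± 1.81 FPKM, BOP1 43.1 ± 1.62 and 45.3 ± 3.62 FPKM, and WDR12 4.68 ± 0.408 and 4.35 ± 0.229 FPKM. RRP1, a processing factor, had 14.9 ± 0.892 and 16.5 ± 1.72 FPKM (log2 fold change 0.13). RRS1 had 30.4 ± 0.983 and 31.4 ± 2.49 FPKM, and NIP7 11.8 ± 0.316 and 11.7 ± 1.13 FPKM, with COG8 on the opposite strand sharing 20.2% of the exonic bases of NIP7.

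The values of NOP2 and PPAN are uncertain because another gene lies over them on the same strand. NOP2, an RNA methyltransferase of the large subunit (chromosome 12, 6556863 to 6568691, minus strand), was at 0.0142 to 0.175 FPKM, with 1 to 12 fragments per library, and was not tested. AC006064.6 shares 54.4% of its exonic bases on the same strand and was listed at 0. PPAN, an assembly factor also named SSF1 homolog, had 5.76 ± 0.490 and 6.35 ± 0.577 FPKM (log2 fold change 0.12, limma adjusted p = 0.497). The read-through gene PPAN-P2RY11 shares 56.0% of its exonic bases and averaged 0.00313 FPKM. The handling of fragments within shared bases was not given in the sources used here.

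**Figure D2:**
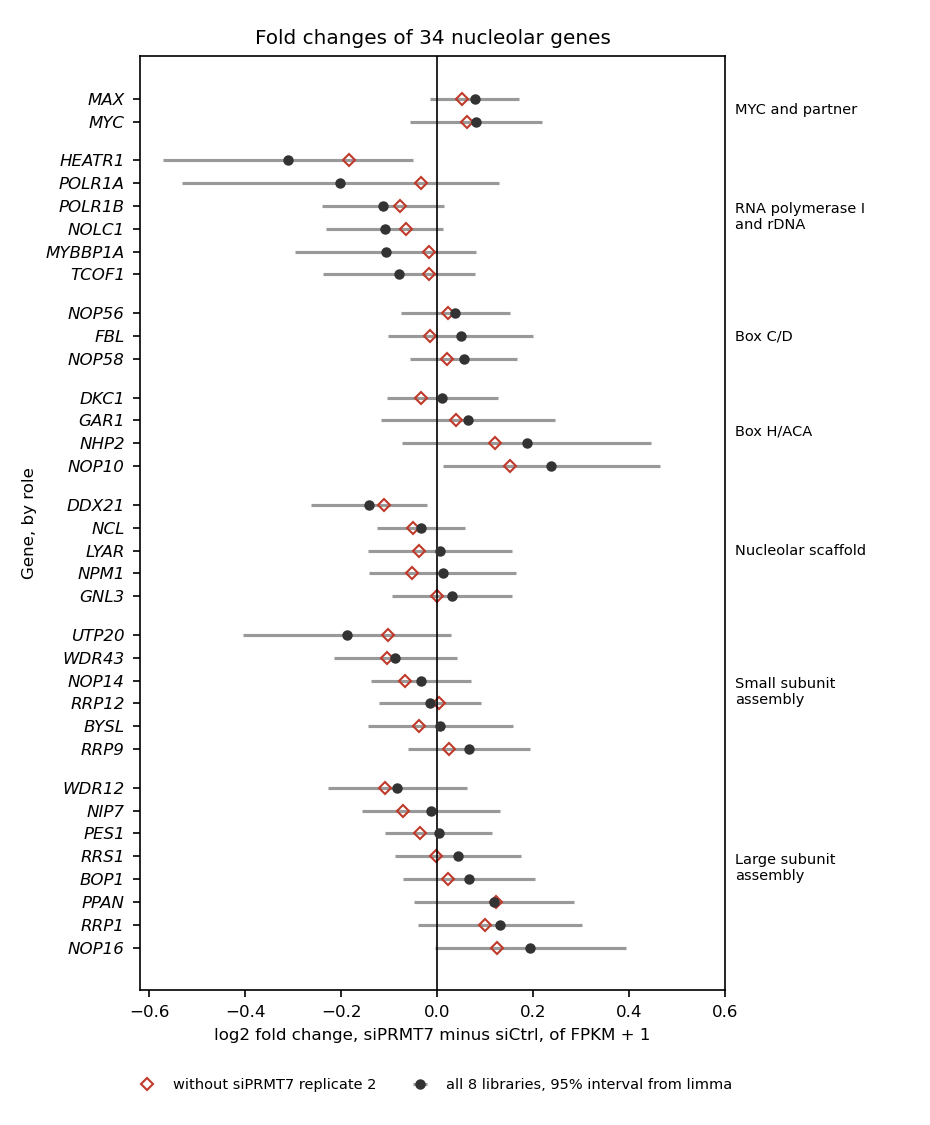
Log2 fold change of FPKM + 1, siPRMT7 minus siCtrl (horizontal axis), for the 34 tested members (vertical axis, grouped by role). Filled points use all 8 libraries with the 95% interval from limma as a bar, and open diamonds leave out siPRMT7 replicate 2. The intervals of HEATR1 and DDX21 lie below 0 and that of NOP10 above 0, and the 6 genes linked to RNA polymerase I are all below 0 under both.

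One library held many of the extremes. Of the 34 tested members 19 had their highest value of all 8 libraries in siPRMT7 replicate 2 and 9 their lowest. For comparison, siPRMT7 replicate 1 held the highest value of 0 members and the lowest of 10. Against the mean of the other 7 libraries 25 members were higher and 9 lower in siPRMT7 replicate 2, from -0.69 (POLR1A) to 0.43 (NOP10) on the log2 scale.

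**Figure D3:**
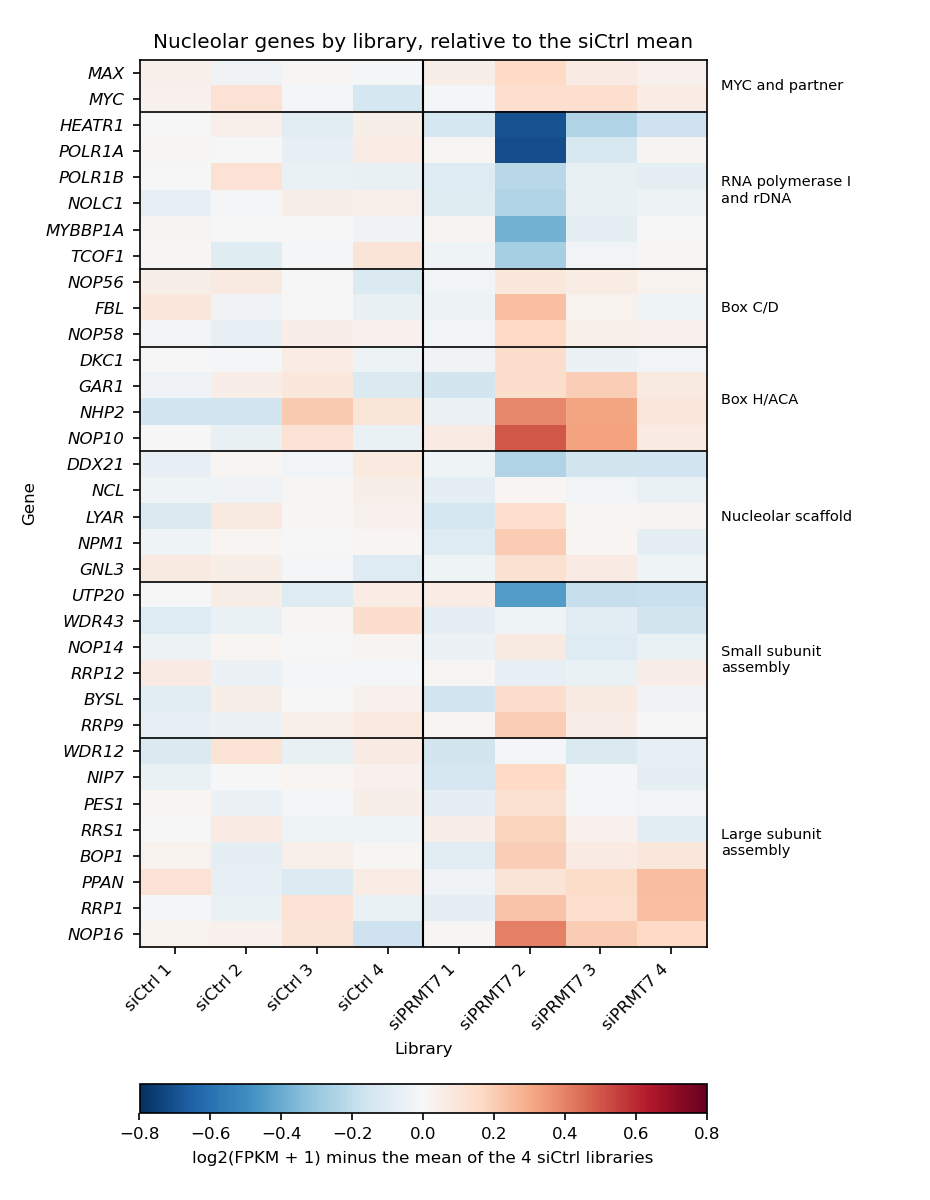
Log2(FPKM + 1) of each tested member (rows, grouped by role) in each library (columns) minus the mean of the 4 siCtrl libraries, on a colour scale from -0.8 (blue) to 0.8 (red). The column of siPRMT7 replicate 2 holds the strongest colours in both directions, and siPRMT7 replicate 3 shows a paler form of the same column.

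The sign of a member's difference went with its gene length. Across the 34 members the correlation of log2 fold change with log2 gene length was r = -0.76, and across all 13436 genes it was r = -0.15. Genes of one library share that library and its depth, so these are descriptions. In siPRMT7 replicate 2 the correlation of the members' deviation with length was -0.76, in siPRMT7 replicate 3 it was -0.70, and in the other 6 libraries it ran from 0.13 to 0.66. Leaving out siPRMT7 replicate 2, the fold changes still had r = -0.60 with length.

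By length class the median deviation of members in siPRMT7 replicate 2 was 0.26 for 4 genes under 2 kb, 0.15 for 13 genes of 2 to 4 kb, 0.07 for 11 of 4 to 8 kb and -0.33 for 6 over 8 kb. All genes tested in the same classes had medians of 0.16, 0.12, -0.02 and -0.15. The members thus followed the order of all genes with a wider range. The 6 genes linked to RNA polymerase I are long, with a median of 7689 bases, and the 4 box H/ACA genes short, with a median of 1778 bases. Cytosolic ribosomal protein genes, with a median length of 3119.5 bases in the table, took 3.94% of fragments in siPRMT7 replicate 2, 3.45% in siPRMT7 replicate 3 and 2.96 to 3.25% in the others. With each library's trend on gene length removed, an alternative added after the data were seen, 22 of 34 members were lower, and the correlation with length was -0.54. In that setting the fold change of HEATR1 was -0.25, of NOLC1 -0.13, of POLR1A -0.11, of POLR1B -0.09 and of MYBBP1A -0.08, while TCOF1 was close to 0 at -0.0023. The part of library differences in the fold changes of these genes was not tested beyond these values.

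**Figure D4:**
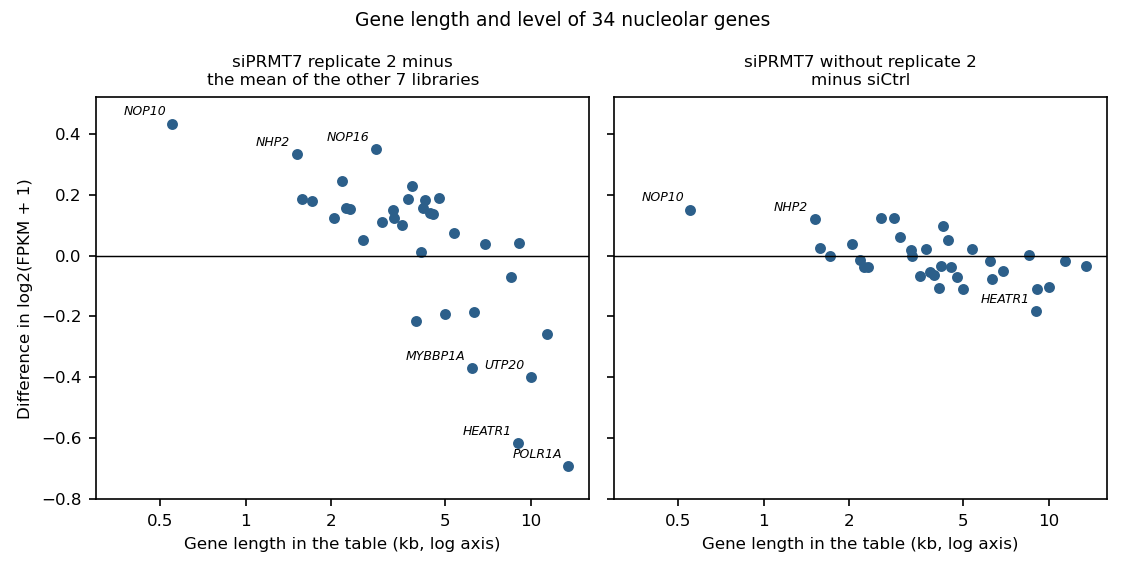
Difference in log2(FPKM + 1) (vertical axes) against gene length in kb (horizontal log axes) for the 34 tested members. The left panel sets siPRMT7 replicate 2 against the mean of the other 7 libraries and the right panel the other 3 siPRMT7 libraries against siCtrl. Long genes such as POLR1A and HEATR1 lie low and short ones such as NOP10 high on the left, and the range is narrower on the right.

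Related genes outside the set gave 0 calls too. Of 13 further RNA polymerase I subunits and initiation factors 7 had a positive and 6 a negative log2 fold change (median 0.02), 6 and 7 with every library brought to one FPKM total or without siPRMT7 replicate 2, so this list was split where the 6 members of that role were all lower. UBTF, the factor that marks active ribosomal DNA, had 30.8 ± 1.45 FPKM under siCtrl and 32.2 ± 0.623 FPKM under siPRMT7. POLR1E had 7.64 ± 0.734 and 6.90 ± 0.226 FPKM, ZNRD1 2.11 ± 0.262 and 2.56 ± 0.533 FPKM, and TAF1D 16.6 ± 0.646 and 17.5 ± 1.05 FPKM.

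Small subunit processome and assembly factors outside the set were evenly split in sign, with 19 of 37 tested higher and 18 lower (median 0.01). Without overlap of the groups 4 of the 37 were lower, against 4.43% of all genes, and 1 was higher, against 4.14%. These counts without overlap were read after the values were seen. At an unadjusted limma p under 0.05, 3 of the 37 were lower and 2 higher, against 5.49% and 7.67% of all genes. By sign the split changed with the setting. It was 18 and 19 without siPRMT7 replicate 2, and 13 and 24 with every library brought to one FPKM total. TSR1, an assembly factor, had 13.0 ± 0.177 and 11.6 ± 0.432 FPKM, with every siPRMT7 library below every siCtrl library (log2 fold change -0.14, limma adjusted p = 0.222). UTP3 had 28.8 ± 1.48 and 33.3 ± 3.10 FPKM, with every siPRMT7 library above (0.20, limma adjusted p = 0.288). Its log2 fold change was 0.14 without siPRMT7 replicate 2. ESF1 had 17.6 ± 0.306 and 16.2 ± 0.789 FPKM, again with every siPRMT7 library below every siCtrl library. PNO1 had 14.8 ± 1.16 and 16.8 ± 1.30 FPKM.

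Of 47 large subunit assembly factors outside the set 21 were higher and 26 lower (median -0.01), with every library brought to one FPKM total 13 and 34, and without siPRMT7 replicate 2 14 and 33 (median -0.02). Groups did not overlap in 7 of them, all lower in siPRMT7, or 14.9% against 4.43% of all genes in that direction. This count was read after the values were seen, and none of the 47 passed over all genes. At an unadjusted limma p under 0.05, 3 of the 47 were lower and 2 higher, against 5.49% and 7.67% of all genes. URB2 had 8.06 ± 0.282 FPKM under siCtrl and 6.74 ± 0.566 FPKM under siPRMT7 (log2 fold change -0.23, limma adjusted p = 0.208). RRP1B, the relative of the member RRP1, had 16.05 ± 1.15 and 13.5 ± 1.59 FPKM (-0.24, and -0.16 without siPRMT7 replicate 2), whereas RRP1 was at 0.13. WDR74 had 13.6 ± 0.781 and 15.7 ± 1.52 FPKM, and EBNA1BP2 29.2 ± 0.786 and 32.7 ± 2.91 FPKM.

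Subunit and assembly factors of small nucleolar RNA particles outside the set were split, with 6 of 10 higher in mean (median 0.01). PIH1D1 had 21.4 ± 0.975 and 23.6 ± 2.45 FPKM, RUVBL2 22.3 ± 1.02 and 24.2 ± 1.94 FPKM, NUFIP1 4.17 ± 0.526 and 4.51 ± 0.463 FPKM, and SNU13 36.6 ± 1.72 and 38.2 ± 3.21 FPKM. None passed. The split was 5 and 5 without siPRMT7 replicate 2, and 4 higher and 6 lower with every library brought to one FPKM total.

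The wider MYC network showed no called gene. Of 12 relatives and partners of MYC 9 were tested, 4 higher and 5 lower (median -0.01). The MYC antagonist MXD1 had 12.1 ± 0.832 and 13.2 ± 0.982 FPKM, MGA 7.92 ± 0.654 and 6.83 ± 1.35 FPKM, MXD3 1.00 ± 0.131 and 1.19 ± 0.267 FPKM, and MLXIP 9.43 ± 0.298 and 8.90 ± 1.31 FPKM. The log2 fold change of MGA was -0.20 with all libraries and -0.07 without siPRMT7 replicate 2. For the 9 genes the split was 7 higher and 2 lower without that library, and 2 and 7 with every library brought to one FPKM total.

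Known MYC targets outside the nucleolus were split as well, 12 of 23 higher and 11 lower (median 0.00103), and 7 and 16 without siPRMT7 replicate 2 or with every library brought to one FPKM total (median -0.04 in both). The 4 with the smallest p were all lower in mean, and only these had an unadjusted limma p under 0.05. That was 4 of 23 lower, against 5.49% of all genes, and 0 higher, against 7.67%. The count changed with the setting. Without siPRMT7 replicate 2 it was 7 of 23 lower and 0 higher, against 13% of all genes in either direction. With every library brought to one FPKM total 5 were lower. Only 1 was lower with a replicate block, with each library's trend on gene length removed, or without siCtrl replicate 2 or siPRMT7 replicate 3 or 4. Without siCtrl replicate 4 it was 0 lower, against 8.79% of all genes in either direction, and without siCtrl replicate 1 or 3 it was 2. These counts were read after the values were seen. GART, PAICS and PPAT, enzymes of purine synthesis, had 15.3 ± 0.427 and 14.0 ± 0.548, 50.1 ± 0.531 and 46.3 ± 2.67, and 9.16 ± 0.214 and 8.30 ± 0.630 FPKM under siCtrl and siPRMT7 libraries. The log2 fold change of PAICS was -0.11 with all libraries and -0.15 without siPRMT7 replicate 2. TFRC, the transferrin receptor, had 70.0 ± 1.51 and 64.7 ± 2.38 FPKM. In GART and TFRC every siPRMT7 library was below every siCtrl library, and 3 of the 23 genes were lower without overlap, against 4.43% of all genes. Their limma adjusted p ran from 0.294 for GART to 0.364 for PPAT.

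Cytosolic ribosomal protein genes, the products with which these factors assemble, differed from the members in their split. Of 78 tested 75 were higher in mean (median 0.13) and 0 were called, and without siPRMT7 replicate 2 it was 64 of 78 (median 0.05). With every library brought to one FPKM total it was 71 of 78, and with the trend on gene length removed 72 of 78 (median 0.10). They took 3.08 ± 0.116% of fragments under siCtrl and 3.38 ± 0.421% under siPRMT7 (SD, n = 4 each, two-sided exact permutation p = 0.257).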

How the data were processed

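The authors deposited FPKM values of 58735 human genes in 8 libraries. Per the submitters' processing notes the tools were cutadapt 2.5, HISAT2 2.1.0 and featureCounts 1.6.3. The notes name a mouse build, but the start, end and strand of all 58735 genes match GENCODE release 29 on GRCh38, which was used for coordinates and exon overlaps. Strand use in counting was not given in the sources used here.

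The deposited values came out as whole fragments (within 0.01) for 100% of values above 0 once gene length and each library's step were taken out, so fragments were rebuilt (14526030 to 15724862 per library).

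Genes reaching 1 FPKM in 4 or more libraries entered a limma fit of log2(FPKM + 1) (limma 3.58.1, R 4.3.3, variance trend, two-sided, Benjamini-Hochberg, threshold 0.05), and the script was tested on simulated data. The members, their roles and the gene lists were chosen with earlier results of these data known. Library values were given for MYC, MAX, NCL, NPM1, FBL, members with an unadjusted p under 0.05 and the smallest p of each role. POLR1A and NHP2 were added after their values were seen. From each related list up to 4 genes with the smallest p were named. Protein sequences were not used here.

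Alternatives were a pseudocount of 0.1, FPKM of at least 5, no filter, one FPKM total per library (TPM scale), voom on rebuilt fragments, a replicate block, each library left out and, added later, a loess trend on length removed.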

Additional observations from a re-analysis of the deposited data

Results flagged for a closer look

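DKC1 in the siPRMT7 group had one library apart from the other 3: replicate 2 at 34.8 FPKM, against 30.4 to 30.9 FPKM. The gap to its neighbour was 0.881 of the group's range, above Dixon's 95% critical value for 4 values. It was 1 of 70 groups of 4 examined over the tested members and PRMT7, and chance alone marks about 1 in 20.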

How the results depend on the processing

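No member reached an adjusted p of 0.05 in any of the 15 alternatives. Of 34 members 22 kept their sign in every alternative that tested them (WDR12 in 14 of the 15), MYC, MAX, NOP10, DDX21 and HEATR1 included. Genes called over all genes were 2 as reported, 1 with a pseudocount of 0.1 or FPKM of at least 5, 5 with no filter, 12 with voom, 0 with the replicate block, and 0 to 2 with a library left out. Members at an unadjusted p under 0.05 were 5 on the TPM scale (13.5% of all genes) or with voom (14.3%), and 0 to 9 with a library left out (8.79% to 20.8%). With the length trend removed 22 members were lower. Leaving out a library gave a median of the members from -0.017 (siPRMT7 replicate 2) to 0.045 (siPRMT7 replicate 1), and the TPM scale gave -0.031.

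Signs turned on the TPM scale for NOP56 (-0.00213), DKC1 (-0.029), NPM1 (-0.030), GNL3 (-0.00958), LYAR (-0.033), BYSL (-0.033) and PES1 (-0.037). With the length trend removed they turned for FBL (-0.014), DKC1 (-6.64e-05), NPM1 (-0.00820), GNL3 (-0.00150), LYAR (-0.054), RRP9 (-0.00228), RRP12 (0.037), BYSL (-0.055), RRS1 (-0.025) and PES1 (-0.000683). Leaving out 1 library gave -0.037 to 0.061 for BYSL, -0.033 to 0.032 for DKC1, -0.015 to 0.078 for FBL, -0.00293 to 0.055 for GNL3, -0.038 to 0.055 for LYAR, -0.071 to 0.027 for NIP7, -0.00124 to 0.061 for NOP56, -0.053 to 0.049 for NPM1, -0.036 to 0.027 for PES1, -0.037 to 0.00808 for RRP12 and -0.00188 to 0.088 for RRS1. The cause was not tested.

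PRMT7 had an exact permutation p of 0.0286 on the TPM scale (log2 fold change -0.14), against 0.0571 as reported (-0.10). Without siPRMT7 replicate 2 the exact permutation p was 0.114 (-0.07). It ran from 0.0571 to 0.114 over the runs with a library left out. The replicate block used numbers that do not pair the libraries: same-numbered deviations correlated at -0.0314 to 0.0613. It left 0 genes called and 3 of 34 members at an unadjusted p under 0.05, against 12.3% of all genes. These were HEATR1, NOP10 and NOP16, while DDX21 was no longer among them. Depth limits NOP2 (1 to 12 fragments), GAR1 and PPAN (from 207 and 206 fragments).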

Other observations

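Several members carry small nucleolar RNAs of their own. Annotated snoRNA genes overlap exonic bases of NOP56 (5), GNL3 (3), DKC1 (2) and NOP58 (1), so the proteins of the particles and some of their RNAs share a transcript. In poly(A)-selected libraries 5 of 5, 2 of 3, 2 of 2 and 1 of 1 of these snoRNAs were listed at 0 in every library, so nothing can be read on the guide RNAs.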
